A study of Mus musculus with 12 samples.

Results

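Transcripts of T and NK (natural killer) cells were followed in the colon of mice lacking thrombospondin 1 (TSP-1) after azoxymethane (AOM) and dextran sodium sulfate (DSS), a carcinogen and a colitis-inducing polymer that together give inflammation-driven colon tumors. The 10 genes were taken by name from the 19938 genes that have a probe with 1 gene symbol on the array, and each had 1 such probe. They comprised 4 genes of the T cell receptor complex and its coreceptors (Cd3e, Cd3g, Cd4 and Cd8a), the regulatory factor Foxp3, 3 cytotoxic proteins (Gzma, Gzmb and Prf1), and an NK cell receptor with an NK cell adaptor (Ncr1 and Sh2d1b1).

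RNA from the colon of 12 mice was hybridized to Affymetrix Mouse Gene 1.0 ST arrays, 1 mouse per array and 3 mice per group. The 4 groups were TSP-1-/- mice given AOM/DSS, WT mice given AOM/DSS, TSP-1-/- mice on water and WT mice on water, all C57BL/6, and per the study's methods male and 7 weeks old at the start. Treated mice received AOM at 10 mg/kg and 4 cycles of 1.5% DSS in the drinking water, each of 7 days, and were killed 15 weeks after the AOM. The methods describe the RNA as from normal and diseased colonic tissue, and the labels do not say which array came from tumor. The TSP-1-/- mice carry a targeted mutation in Thbs1 from which no protein is made, although the gene can still be transcribed. The labels of the water arrays carry the treatment text of another DSS experiment, so their mice were not necessarily kept alongside the treated ones.

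A T cell recognizes antigen through a receptor whose signal runs through the CD3 chains, and the coreceptors CD4 and CD8 divide helper from cytotoxic T cells. Regulatory T cells are programmed by FOXP3 and restrain inflammation, which in the intestine keeps responses to bacteria in check. Cytotoxic T cells and NK cells kill by releasing perforin, which opens membranes, and granzymes, proteases that enter the target. NK cells read activating and inhibitory surface receptors instead of a rearranged antigen receptor, and some of these receptors, among them the SLAM family, signal through small SH2 adaptors such as EAT-2, the product of Sh2d1b1.

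All values are log2 signals relative to a per-probe baseline, so a value of 1 is 2-fold above that baseline, and levels of different genes, or of the AOM/DSS and water arrays, cannot be set against each other. On the AOM/DSS arrays the baseline was the median of all 12 arrays, and the water arrays had another baseline. A gene was called different when its Benjamini-Hochberg adjusted p in limma was under 0.05 over all probes and its difference was at least 2-fold. In whole colon RNA, fewer cells of a type and less RNA per cell cannot be told apart.

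The 5 cytotoxic and NK genes shared a promoter feature that the 4 T cell genes with a promoter sequence did not. The motif TGTGGT, the core bound by RUNX factors, which direct T and NK cell development, was searched on both strands (ACCACA when read in reverse) in the 250 bases before the transcription start, from RefSeq promoters of GRCm38.p6. It was present in all 5 of Gzma, Gzmb, Prf1, Ncr1 and Sh2d1b1 and in 0 of Cd3e, Cd3g, Cd8a and Foxp3, and 14.0% of all 32851 promoters held it. An ETS motif, CAGGAAG or CTTCCTG, was in Cd3e and Prf1 (10.8% of all promoters), and a T-box motif, GGTGTGA or TCACACC, was in 0 of the 9 (3.33%). These matches describe letters in this window and not binding. The sequences of Sh2d1b1, which differed most clearly between genotypes, of its neighboring paralog Sh2d1b2, and of the 2 granzyme genes are printed 5′ to 3′ with the RUNX motif in capitals.
Sh2d1b1, chr1:170277068-170277317, + strand: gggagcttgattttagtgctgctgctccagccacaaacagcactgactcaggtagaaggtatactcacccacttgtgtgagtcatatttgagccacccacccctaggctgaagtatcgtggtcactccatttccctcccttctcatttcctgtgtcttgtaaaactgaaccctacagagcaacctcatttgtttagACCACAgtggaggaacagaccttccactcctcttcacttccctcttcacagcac
Sh2d1b2, chr1:170232621-170232870, + strand: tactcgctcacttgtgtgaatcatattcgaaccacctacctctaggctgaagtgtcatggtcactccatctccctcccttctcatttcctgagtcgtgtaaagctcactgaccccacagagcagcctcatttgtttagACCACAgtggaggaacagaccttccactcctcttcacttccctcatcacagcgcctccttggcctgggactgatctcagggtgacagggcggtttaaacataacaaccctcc
Gzma, chr13:113100982-113101231, - strand: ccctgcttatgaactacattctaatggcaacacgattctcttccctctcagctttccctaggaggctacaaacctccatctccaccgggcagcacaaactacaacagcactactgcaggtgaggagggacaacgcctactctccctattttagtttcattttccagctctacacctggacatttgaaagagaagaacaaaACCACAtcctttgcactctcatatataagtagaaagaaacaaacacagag
Gzmb, chr14:56262335-56262584, - strand: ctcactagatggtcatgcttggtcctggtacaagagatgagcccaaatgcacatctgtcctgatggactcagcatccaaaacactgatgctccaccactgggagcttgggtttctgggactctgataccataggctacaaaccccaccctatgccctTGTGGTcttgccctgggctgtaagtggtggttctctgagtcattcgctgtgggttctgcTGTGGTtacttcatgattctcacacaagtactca
The motif began 54 bases before the start of Sh2d1b1, 112 before that of Sh2d1b2 and 50 before that of Gzma, while Gzmb held it at 93 and at 34 bases. The Sh2d1b1 and Sh2d1b2 windows aligned over 191 columns, of which 171 were identical (89.5%), so the paralogs carry nearly the same upstream sequence around the motif.

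Among the 10 genes, 1 was called between genotypes after AOM/DSS. Sh2d1b1 was called higher in TSP-1-/- mice, against 1.73% of all probes called higher and 1.05% called lower (500 and 302 of 28853). Foxp3 also lay higher on every TSP-1-/- array but by less than 2-fold. The 4 T cell receptor and coreceptor genes were far higher on 1 TSP-1-/- array than on any other AOM/DSS array. Gzma was low on 2 TSP-1-/- arrays and on 1 WT array. The median difference over the 10 genes was 0.57, with 7 above and 3 below 0, and the median over all probes was 0.13. Replicate 3 of the TSP-1-/- mice decided this direction: without it the median over the 10 genes was -0.24, with 3 above and 7 below 0, and that over all probes was 0.11. Groups did not overlap for 2 genes, both higher in TSP-1-/- (20.2% of all probes), and 0 did so in the lower direction (10.7%). An adjusted p under 0.05 at any fold was reached by 2 of the 10 (8.3% of all probes), and an unadjusted one by the same 2 (32.3%). On water, 0 of the 10 genes were called.

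**Figure D1:**
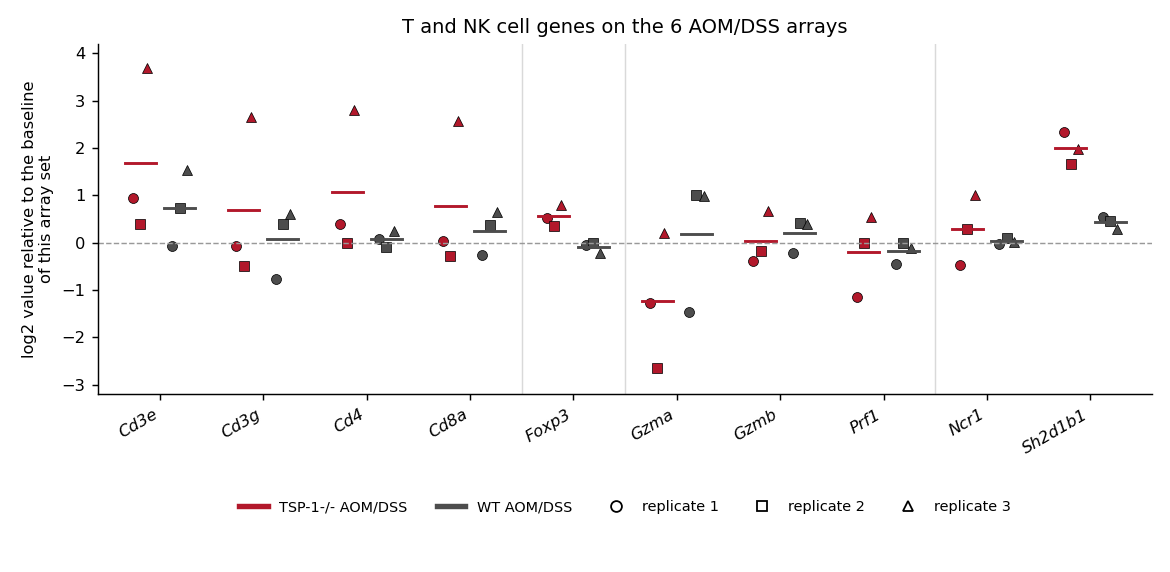
Log2 values of the 10 genes on the 6 AOM/DSS arrays, relative to the 12-array median, with TSP-1-/- mice (red) left of WT mice (grey). Symbols mark replicates and lines the group means; replicate 3 of the TSP-1-/- mice stands at 3.69 for Cd3e, far above its group, whereas all 3 TSP-1-/- arrays lie above all 3 WT arrays for Sh2d1b1 and Foxp3.

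Cd3e (chr9:44998735-45009663, GRCm38.p6) encodes the CD3 epsilon chain that every T cell receptor needs. It had values of 0.94, 0.41 and 3.69 in treated TSP-1-/- mice and of -0.07, 0.73 and 1.54 in treated WT mice. The groups overlapped, with only replicate 3 of the TSP-1-/- mice above the highest WT array. Its difference was 0.94 (95% interval -0.50 to 2.38, adjusted p = 0.331, limma), and without that array it was -0.06. Cd3e was above the 12-array median on 5 of 6 AOM/DSS arrays.

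Cd3g (chr9:44969572-44980431), the gamma chain of the same complex and a neighbor of Cd3e on chromosome 9, had values of -0.06, -0.48 and 2.65 in TSP-1-/- mice against -0.76, 0.41 and 0.60 in WT mice. Again 1 TSP-1-/- array stood alone while the other two fell inside the WT range. The difference was 0.62 (-0.78 to 2.02, adjusted p = 0.515), and -0.36 without replicate 3 of the TSP-1-/- mice.

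Cd4 (chr6:124864693-124888247), the coreceptor of helper and regulatory T cells and also present on some macrophages and dendritic cells, gave 0.41, -0.01 and 2.80 in TSP-1-/- mice and 0.07, -0.08 and 0.24 in WT mice. Replicates 1 and 3 lay above all WT arrays, and replicate 2 lay among them. The difference of 0.99 (-0.15 to 2.13, adjusted p = 0.208) came to 0.12 without replicate 3.

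Cd8a (chr6:71373427-71379171), the coreceptor of cytotoxic T cells and of many intraepithelial lymphocytes, gave 0.03, -0.29 and 2.57 in TSP-1-/- mice and -0.27, 0.38 and 0.64 in WT mice. Only replicate 3 of the TSP-1-/- mice was above the WT range. The difference was 0.52 (-0.69 to 1.73, adjusted p = 0.529), and without that array -0.38. None of these 4 genes passed the test, and their intervals are wide enough to hold a 2-fold rise as well as no difference.

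Foxp3 (chrX:7579676-7595243), the transcription factor that defines regulatory T cells, had values of 0.53, 0.36 and 0.79 in treated TSP-1-/- mice, against -0.04, 0.01 and -0.22 in treated WT mice. The groups did not overlap, and all 3 TSP-1-/- arrays were above the 12-array median. The difference was 0.65, or 1.57-fold (SE 0.16, 95% interval 0.31 to 0.99, adjusted p = 0.0343), so it passed the p threshold, as did 5.38% of all probes in this direction, but not the 2-fold minimum. Without replicate 3 of the TSP-1-/- mice the difference was 0.53 (adjusted p = 0.105), and its adjusted p was under 0.05 under 12 of 22 alternative settings, with a range of 0.0243 to 0.141. Foxp3 was also highest on replicate 3, but its rise there was smaller than that of the 4 T cell receptor and coreceptor genes. That array exceeded the mean of the other TSP-1-/- arrays by 0.34 for Foxp3. For Cd3e it did so by 3.01, for Cd3g by 2.92, for Cd4 by 2.60 and for Cd8a by 2.70.

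Gzma (chr13:113093824-113100981) encodes granzyme A, a tryptase-like protease of cytotoxic T cells, NK cells and intraepithelial lymphocytes. Its values were -1.28, -2.64 and 0.20 in treated TSP-1-/- mice and -1.46, 1.00 and 0.99 in treated WT mice. Replicates 1 and 2 of the TSP-1-/- mice and replicate 1 of the WT mice were low, and the groups overlapped. The difference was -1.42 (-2.95 to 0.12, adjusted p = 0.184), the largest in size below 0 among the 10 genes. It was called without replicate 1 of the WT mice (-2.23, adjusted p = 0.0408) and without that array and replicate 3 of the TSP-1-/- mice together (-2.95, adjusted p = 0.00278), a setting chosen after seeing the data.

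The other 2 cytotoxic genes moved little between genotypes. Gzmb (chr14:56258836-56262334), granzyme B, an aspartate-cleaving protease that starts caspase activation, gave -0.39, -0.16 and 0.68 in TSP-1-/- mice and -0.21, 0.42 and 0.40 in WT mice, with a difference of -0.16 (-0.77 to 0.45, adjusted p = 0.713). Prf1 (chr10:61297751-61304684), perforin, gave -1.15, -0.00 and 0.55 in TSP-1-/- mice and -0.44, 0.00 and -0.11 in WT mice, with a difference of -0.02 (-0.74 to 0.70, adjusted p = 0.972). In both genes the highest of the 6 values belonged to replicate 3 of the TSP-1-/- mice and the lowest to replicate 1 of the TSP-1-/- mice, so the WT range lay inside that of the TSP-1-/- mice. A difference of 2-fold lay outside both intervals, but these use 1 spread pooled over all 12 arrays. Prf1 had an SD of 0.87 in treated TSP-1-/- mice against 0.27 in those on water, and Gzmb 0.56 against 0.24. A 2-fold difference in treated mice is therefore not excluded.

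Ncr1 (chr7:4337715-4345184) encodes NKp46, an activating receptor largely restricted to NK cells and related innate lymphocytes. It gave -0.46, 0.30 and 1.01 in treated TSP-1-/- mice and -0.02, 0.11 and 0.02 in treated WT mice. The WT arrays lay close together inside the TSP-1-/- range. The difference was 0.24 (-0.34 to 0.83, adjusted p = 0.538). This interval too uses 1 spread pooled over all 12 arrays. The SD of Ncr1 was 0.73 in treated TSP-1-/- mice against 0.05 in those on water. A 2-fold difference in treated mice is therefore not excluded.

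Sh2d1b1 (chr1:170277318-170286769) encodes EAT-2, an adaptor of NK cells, dendritic cells and macrophages that binds phosphorylated SLAM family receptors. Its values were 2.34, 1.67 and 1.98 in treated TSP-1-/- mice, against 0.55, 0.46 and 0.29 in treated WT mice. The lowest TSP-1-/- array stood well above the highest WT array. The difference was 1.56, or 2.95-fold (SE 0.19, 95% interval 1.15 to 1.97, adjusted p = 0.00351), and it ranged from 1.39 to 1.73 as each array was left out in turn. The call held in 20 of 22 alternative settings. It was lost when the 12 arrays were quantile normalized again (0.75, adjusted p = 0.0671) and when only the 6 AOM/DSS arrays were fitted (1.56, adjusted p = 0.0761). A permutation test of 3 against 3 arrays cannot go below p = 0.1, and both Sh2d1b1 and Foxp3 reached that exact two-sided value.

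**Figure D2:**
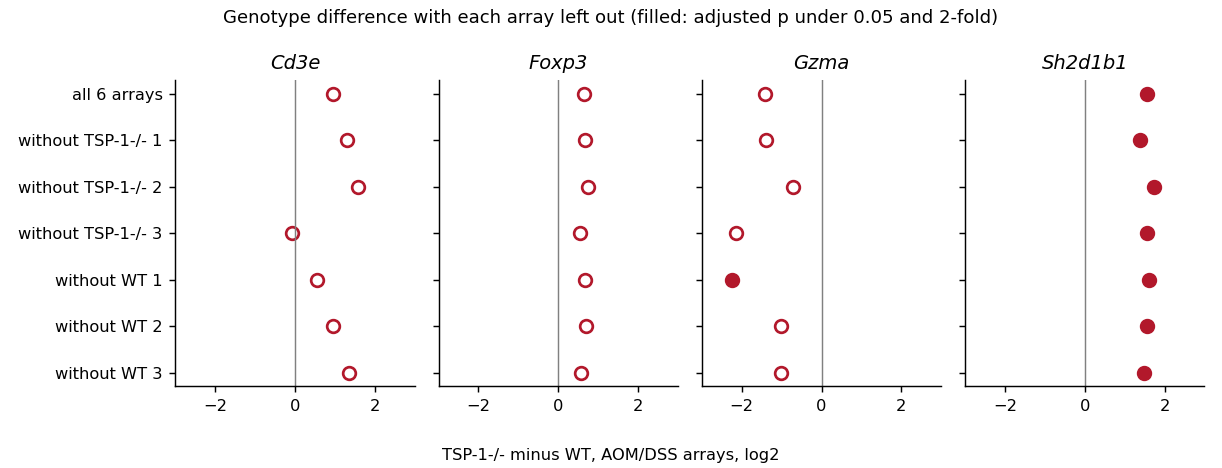
TSP-1-/- minus WT difference on the AOM/DSS arrays (x axis, log2) for 4 genes, with all 6 arrays and with each array left out (rows); filled points passed both thresholds. Sh2d1b1 is called in every row, Foxp3 in none because its differences stay under 2-fold, Cd3e reaches -0.06 without replicate 3 of the TSP-1-/- mice, and Gzma is called only without replicate 1 of the WT mice.

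Sh2d1b1 was the member of the 10 that lay above the 12-array median on 6 of 6 AOM/DSS arrays, as 2.02% of all probes did. The other 9 genes were above that median on 2 to 5 of the 6 arrays. In 0 of the 10 genes were all 6 arrays below it (3.99% of all probes). The treated and water mice are also 2 separate array sets, and these cannot be told apart from the treatment.

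The paralog, a further adaptor of the family and some of the receptors that use these adaptors are given as well. Sh2d1b2, which encodes the related adaptor ERT, gave -0.31, -0.17 and -0.52 in treated TSP-1-/- mice and -0.57, -0.69 and -0.46 in treated WT mice. All 6 values were below the 12-array median, and the groups overlapped, with a difference of 0.24 (adjusted p = 0.203). Whether transcripts of these paralogs bind each other's probes was not tested. Sh2d1a, which encodes the adaptor SAP of T and NK cells, gave 0.33, -0.13 and 2.78 against -0.64 to 0.15 in WT mice, a difference of 1.15 (adjusted p = 0.175). These 2 genes are given as the relatives of Sh2d1b1 and were picked with their values known. The receptors Cd244a and Slamf7 are given because they were called. They do not stand for the other SLAM family receptors, which are not given here. Cd244a, the SLAM family receptor 2B4 of NK cells and some myeloid cells, gave 2.11, 1.67 and 2.17 in TSP-1-/- mice against 0.28, -0.28 and -0.30 in WT mice. It was called higher (2.08, 4.23-fold, adjusted p = 0.00226), without overlap, and in 21 of 22 alternative settings. Slamf7, the SLAM family receptor CRACC, gave 1.59, 0.80 and 2.54 against -0.00, 0.00 and 0.46 and was called higher (1.49, adjusted p = 0.0372), in 9 of 22 settings.

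**Figure D3:**
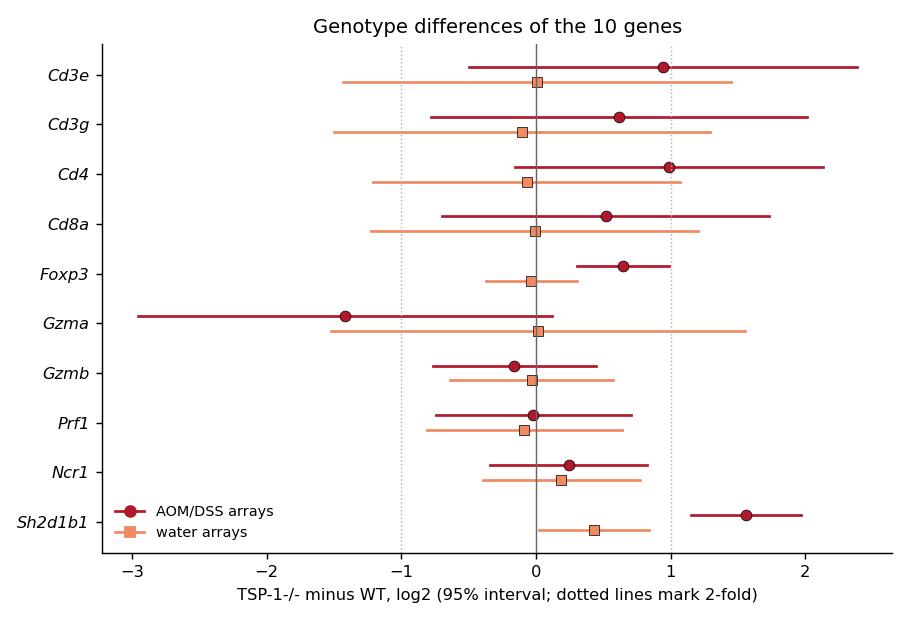
TSP-1-/- minus WT difference (x axis, log2) with its 95% interval for each of the 10 genes (rows), on the AOM/DSS arrays (circles) and on the water arrays (squares). The AOM/DSS interval of Sh2d1b1 runs from 1.15 to 1.97 and lies beyond 2-fold, that of Foxp3 from 0.31 to 0.99, and the other 8 cross 0.

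On water, the genotypes differed in 0 of the 10 genes by limma, and in 0 of 28815 probes at the same thresholds. At an unadjusted p under 0.05 there were 288 probes (0.999%), among them 1 of the 10 genes, Sh2d1b1. The differences ran from -0.10 to 0.43, with a median of -0.02 against -0.00 over all probes, and every adjusted p was 1.00. Sh2d1b1 gave -0.30, -0.61 and -0.29 in TSP-1-/- mice and -0.55, -1.03 and -0.91 in WT mice, with a difference of 0.43 (0.02 to 0.84, unadjusted p = 0.0408). Replicate 2 of the TSP-1-/- mice lay below the highest WT array, so the groups overlapped, although the direction was that of the treated mice. Ncr1 gave 0.04, 0.14 and 0.12 in TSP-1-/- mice and -0.03, -0.18 and -0.06 in WT mice. These groups did not overlap (2.29% of all probes in this direction, and 2.88%, with 0 of the 10, in the other), and the difference was 0.19 (-0.39 to 0.77, unadjusted p = 0.495). This interval and p use the spread over all 12 arrays, which for Ncr1 was wider in treated mice. In a limma fit of the 6 water arrays alone its unadjusted p was 0.109.

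The T cell genes spanned less on water than after AOM/DSS, where replicate 3 of the TSP-1-/- mice gave their highest values. Cd3e gave -0.27, -0.04 and 0.10 in TSP-1-/- mice and -0.05, -0.27 and 0.07 in WT mice, and its difference was 0.01. Cd3g gave 0.21, -0.49 and -0.19 in TSP-1-/- mice and 0.09, -0.16 and -0.09 in WT mice, a span of 0.71 against 3.41 after AOM/DSS. Cd8a, the flattest of them on water, spanned 0.05 over the 6 water arrays but 2.86 over the 6 AOM/DSS arrays. Foxp3 gave -0.30, -0.18 and -0.02 in TSP-1-/- mice and -0.13, -0.36 and 0.08 in WT mice, with a difference of -0.03. Over the 10 genes, the span of 6 arrays was 1.01 to 3.75 (median 2.45) with AOM/DSS and 0.05 to 0.88 (median 0.49) on water. The SD over all probes was 0.31 to 0.75 on the AOM/DSS arrays and 0.29 to 0.35 on the water arrays. Whether the wider span is particular to these genes was not tested. Gzma was the widest on water, at 0.42, -0.46 and 0.10 in TSP-1-/- mice and 0.13, 0.28 and -0.39 in WT mice, and its groups overlapped there too.

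**Figure D4:**
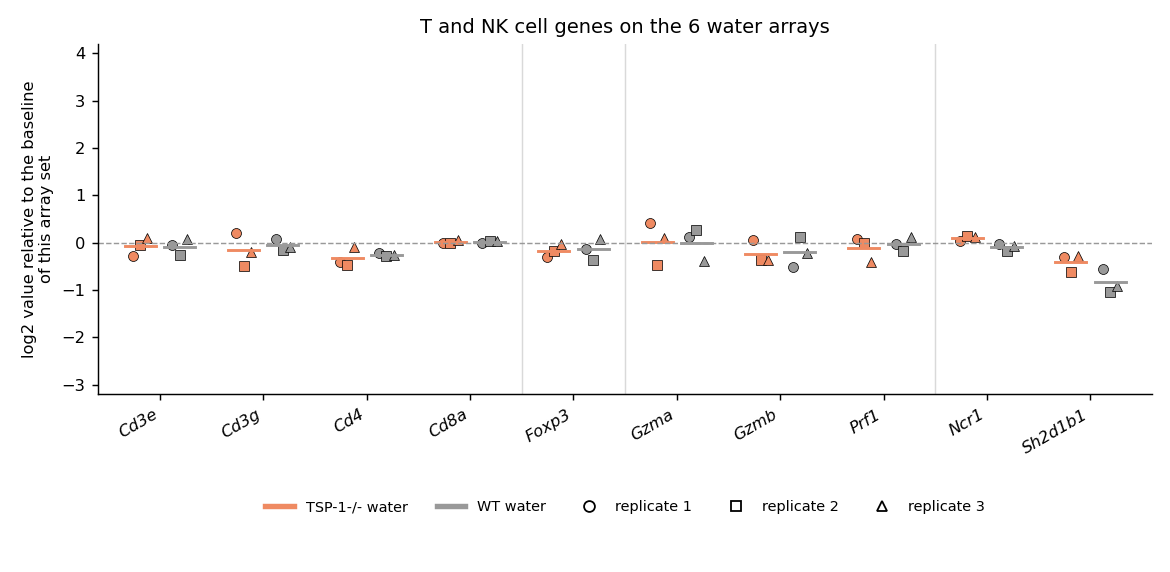
Log2 values of the 10 genes on the 6 water arrays, relative to the baseline of those arrays and on the same y scale as for the treated mice, with TSP-1-/- mice (orange) left of WT mice (grey). Symbols mark replicates and lines the group means; apart from Sh2d1b1, every value lies between -0.50 and 0.42.

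Whether the genotype difference was unequal in treated and water mice was tested as the difference of the differences. It was called for 0 of the 10 genes, against 2 of 28815 probes (0.00694%), and 2 of the 10 had an unadjusted p under 0.05 (15.4% of all probes). For Sh2d1b1 it was 1.13 (0.55 to 1.71, unadjusted p = 0.00113, adjusted p = 0.20), and for Foxp3 0.68 (0.20 to 1.16, unadjusted p = 0.00935, adjusted p = 0.251). Neither holds after correction over all probes.

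The 10 genes fell into patterns across arrays. Replicate 3 of the treated TSP-1-/- mice was the highest of the 6 AOM/DSS arrays for 8 of the 10 genes, as for 31.5% of all probes, the exceptions being Gzma and Sh2d1b1. With the mean of each array set removed, Cd3e, Cd3g and Cd8a correlated with each other at r = 0.95 to 0.97 over the 12 arrays, and Cd4 correlated with them at 0.89 to 0.93. Sh2d1b1 correlated at 0.23 to 0.46 with these 4 genes and at 0.81 with Foxp3. Between Foxp3 and the same 4 genes r was 0.46 to 0.68. Gzma ran with Gzmb at 0.73 and against Foxp3 and Sh2d1b1 at -0.33 and -0.42. These correlations describe 12 arrays in which 1 array holds most of the T cell spread.

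The genes most like each member across the 12 arrays were found by the same correlation. For Cd3e they were Dock8 (r = 0.97), Cd8a and Cd8b1, and for Cd8a they were Klrd1 (0.98), Cd3d and Cd96, all expressed in lymphocytes. For Cd4, the most alike were Serpini2 (0.99), Pla2g1b and Tnfsf8, the first 2 of which are pancreatic transcripts in the mouse. Gzma was followed by Nt5c1b (0.93), Xcl1, a chemokine of cytotoxic T and NK cells (0.93), and Wdr88. Foxp3 was followed by Fgf20 (0.99), Lcn11 and Crlf2, and Sh2d1b1 by Slc23a4 (0.96), Pip5k1a and Olfr1026. Cd3g was most like Cd8a (0.97), Klrd1 and Kif21b, Gzmb like Olfr1121 (0.92), Reg3a and Orai2, Prf1 like Ttyh3 (0.91), Rnf166 and Acsm5, and Ncr1 like Pik3ip1 (0.94), Snx32 and Dnah3.

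Wider lists placed these genes among 115 measured genes (of 123 listed) of T and NK cell function. After AOM/DSS, 9 were called higher and 1 lower, beside 1.73% and 1.05% of all probes, and the median difference was 0.58 beside 0.13. Without replicate 3 of the treated TSP-1-/- mice, 3 were called higher and 0 lower, and the median was 0.27. With the 12 arrays quantile normalized again, 2 were called higher with a median of 0.29, and in a fit of the 6 AOM/DSS arrays alone 0 were called. Leaving out single arrays moved these counts from 1 called higher, without replicate 3 of the WT mice, to 21, without replicate 2 of the TSP-1-/- mice. On water 0 of the 115 were called.

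T cell receptor signalling genes were, like Cd3e, highest on 1 TSP-1-/- array. All 20 measured were highest on replicate 3 of the TSP-1-/- mice, where their median was 2.79, beside 0.37 and 0.18 on the other TSP-1-/- arrays and -0.05, 0.03 and 0.07 in WT mice. Of these, 1 was called higher: Lcp2, the SLP-76 scaffold that links receptor kinases to calcium signalling, gave 1.11, 1.34 and 2.92 in TSP-1-/- mice against -0.12, -0.05 and -0.16 in WT mice (1.90, adjusted p = 0.0245). Its groups did not overlap, and without replicate 3 the difference was 1.33 (adjusted p = 0.0378). The 5 naive and recirculating T cell genes had array medians of 0.47, 0.40 and 2.47 in TSP-1-/- mice and of -0.14, -0.04 and -0.02 in WT mice, and 0 were called. Among them Ccr7, the lymph node homing receptor, differed by 0.87 (adjusted p = 0.0292, under 2-fold) and S1pr1, needed to leave lymph nodes, by 1.50 (adjusted p = 0.0575).

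Of 13 regulatory T cell genes, 1 was called higher, and the median difference was 0.65. Tnfrsf9, the costimulatory receptor 4-1BB, gave 1.03, 0.71 and 1.56 in TSP-1-/- mice against -0.11, 0.03 and 0.18 in WT mice (1.07, adjusted p = 0.018), without overlap. It was called in 13 of 22 settings, and without replicate 3 of the TSP-1-/- mice its difference was 0.84, under 2-fold, so that 0 of the 13 genes were called. Ctla4 and Il2ra, defining surface markers of regulatory T cells with Foxp3, differed by 1.58 (adjusted p = 0.0626) and 1.06 (adjusted p = 0.174). Ikzf2, which encodes Helios, a further marker, gave -0.58, -1.76 and 0.06 in TSP-1-/- mice and -2.15, 0.17 and 0.27 in WT mice, so the markers of this list did not move alike.

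Of 21 cytotoxic granule genes, 1 was called in each direction, and the median difference was 0.44. Stx11, a syntaxin of granule release, gave 0.79, 1.03 and 1.41 in TSP-1-/- mice against 0.01, -0.01 and -0.41 in WT mice (1.21, adjusted p = 0.0142). Gzmd, a granzyme encoded beside Gzmb in the mouse, gave -0.26, -0.46 and -1.0 in TSP-1-/- mice against -0.23, 0.98 and 1.01 in WT mice (-1.16, adjusted p = 0.040). The low WT array was replicate 1, as for Gzma, and without replicate 3 of the TSP-1-/- mice the adjusted p of Gzmd was 0.125.

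Of 26 NK cell receptors and adaptors, 5 were called higher and 0 lower, with a median difference of 0.60. Beside Cd244a and Slamf7 these were Klrk1, Klrg1 and Tyrobp. Klrk1, the activating receptor NKG2D, gave 1.34, 1.11 and 2.71 in TSP-1-/- mice against -0.55, 0.23 and 0.50 in WT mice (1.66, adjusted p = 0.0293). Klrg1, an inhibitory receptor of mature effector cells, differed by 1.25 (adjusted p = 0.0399) and Tyrobp, the DAP12 adaptor shared by NK and myeloid cells, by 1.18 (adjusted p = 0.0348). The genotypes did not overlap for any of these 5, as for 20.2% of all probes in this direction, but the 5 had been picked by their call. Other markers of NK cells were not called: Klrb1c, which encodes NK1.1, gave 0.43, -0.18 and 0.54 in TSP-1-/- mice and 0.19, 0.31 and 0.68 in WT mice, and Eomes, a transcription factor of NK cells, differed by -0.13 (adjusted p = 0.536). Without replicate 3 of the TSP-1-/- mice, 1 of the 26 genes was called, Cd244a (1.98, adjusted p = 0.00408).

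Among the other lists, 1 of 15 helper T cell factors and cytokines was called higher. It was Bcl6, the follicular helper factor that is also a germinal center B cell factor, at 0.74, 0.98 and 1.69 in TSP-1-/- mice against 0.31, 0.05 and -0.08 in WT mice (1.05, adjusted p = 0.0419). The call held in 9 of 22 settings and was lost without replicate 3 of the TSP-1-/- mice (0.77, adjusted p = 0.127). Of 7 inhibitory receptors 0 were called. Those with the lowest p were Entpd1 (0.85, adjusted p = 0.0307) and Havcr2 (0.89, adjusted p = 0.0457), both under 2-fold. Of 8 intraepithelial and gamma-delta T cell genes 0 were called, with a median difference of 0.15, close to that over all probes. Jaml and Gpr55 had the lowest p there, at 0.66 (adjusted p = 0.115) and 0.41 (adjusted p = 0.229).

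**Figure D5:**
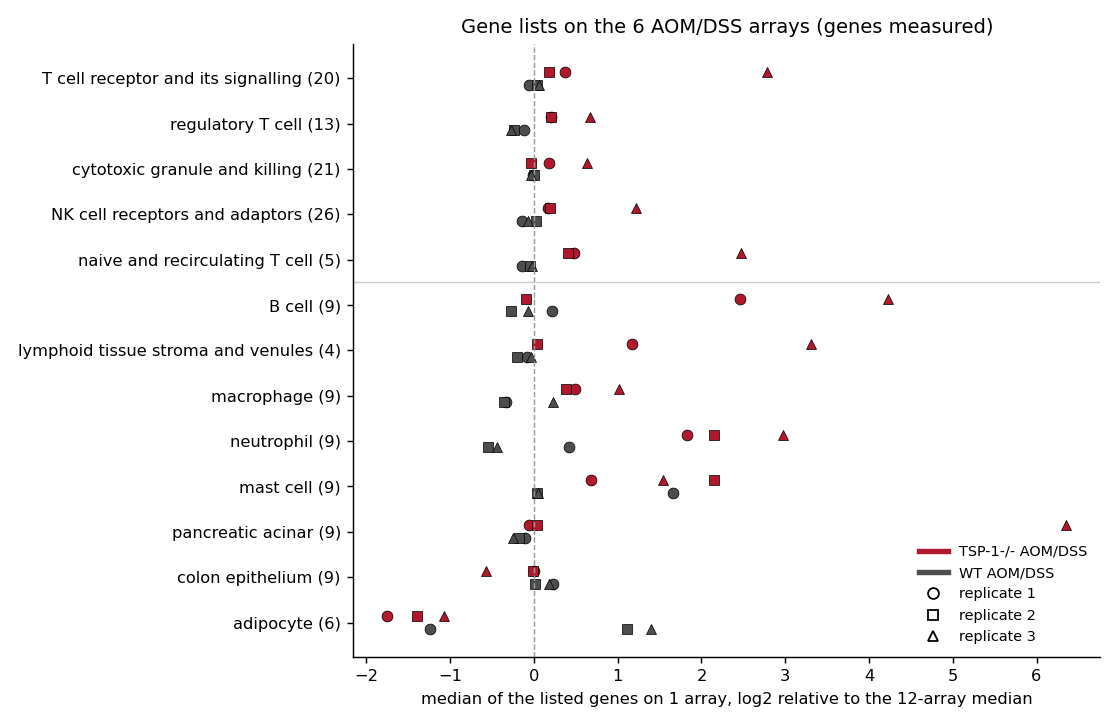
Median of the listed genes on each of the 6 AOM/DSS arrays (x axis, log2 relative to the 12-array median), for 5 T and NK cell lists and 8 lists of other cells (rows, genes measured in brackets), with TSP-1-/- mice (red) above WT mice (grey) and symbols for replicates. Replicate 3 of the TSP-1-/- mice stands apart for T cell receptor signalling (2.79), B cell (4.23), lymphoid stroma (3.31) and pancreatic acinar genes (6.36).

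The array that carried the T cell genes was also high for other cell types. On replicate 3 of the treated TSP-1-/- mice, 9 of 9 B cell genes, 6 of 6 pan-leukocyte genes, 4 of 4 genes of lymphoid tissue stroma and venules and 9 of 9 pancreatic acinar genes had their highest AOM/DSS value. The median of the B cell genes was 2.47, -0.10 and 4.23 in TSP-1-/- mice and 0.22, -0.27 and -0.07 in WT mice, with Cd79a and Cd79b, the signalling chains of the B cell receptor, called higher, and 0 of 9 called without replicate 3 of the TSP-1-/- mice. That of the lymphoid stroma genes was 1.17, 0.03 and 3.31 against -0.08, -0.20 and -0.04. Pancreatic acinar genes had medians of -0.06, 0.03 and 6.36 in TSP-1-/- mice and of -0.11, -0.18 and -0.25 in WT mice, so that these transcripts were high on the same array alone, and 9 colon epithelium genes had a median of -0.57 there. The part of these cells in the T cell values was not tested. For Sh2d1b1, which was as high on the other two TSP-1-/- arrays, the difference without that array was 1.57.

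Lists of neutrophil, macrophage and dendritic cell genes had higher medians on every TSP-1-/- array than on any WT array, as Sh2d1b1 did. The same held for the T cell receptor signalling, regulatory T cell, naive T cell, NK cell and pan-leukocyte lists. It is therefore not particular to these 3 lists. Neutrophil genes had medians of 1.83, 2.15 and 2.98 in TSP-1-/- mice and 0.41, -0.55 and -0.44 in WT mice. Of these, 4 of 9 were called higher, beside 1.73% of all probes. Macrophage genes had medians of 0.50, 0.39 and 1.02 against -0.33, -0.36 and 0.23, and 1 of 9, Csf1r, the receptor that sustains macrophages, was called higher (1.03, adjusted p = 0.0492). Dendritic cell genes had medians of 0.80, 0.16 and 0.88 against -0.28, -0.13 and -0.00, and 2 of 7 were called higher. Without replicate 3 of the TSP-1-/- mice 0 genes of these 3 lists were called, and without replicate 3 of the WT mice 0 as well. Mast cell genes differed in pattern, with medians of 0.68, 2.15 and 1.54 in TSP-1-/- mice and 1.66, 0.04 and 0.05 in WT mice. The part of these cells in the values of Sh2d1b1 was not tested.

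Genes of colon position and of fat set replicate 1 of the WT mice with all 3 TSP-1-/- arrays, a division that Gzma did not share in full. Hoxb6 gave -2.60, -3.25 and -3.43 in TSP-1-/- mice and -3.44, 1.28 and 0.98 in WT mice. Hoxb13, a gene of the distal colon, gave 0.78, -0.06 and 0.06 in TSP-1-/- mice and 0.43, -6.33 and -5.89 in WT mice. Adipocyte genes had medians of -1.75, -1.39 and -1.07 against -1.24, 1.11 and 1.40. Gzma was also low on that WT array, at -1.46, but on replicate 3 of the TSP-1-/- mice it was at 0.20, although the position and fat genes there were like those on the other TSP-1-/- arrays. The part of the sampled stretch of colon in these values was not tested.

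Thbs1, the targeted gene, was not lower in TSP-1-/- mice. It gave 0.81, 0.85 and 0.93 in treated TSP-1-/- mice against 0.27, -0.16 and -0.07 in treated WT mice (0.85, adjusted p = 0.073). Since the mutated gene can be transcribed, this probe does not check the genotype labels. Array medians lay between -0.09 and 0.05 over the 12 arrays, and the SD over probes was 0.75 on replicate 3 of the treated TSP-1-/- mice and 0.29 to 0.45 on the other 11.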

How the data were processed

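RNA from the colon of 12 mice was measured on 12 arrays. Per the study's methods, the authors made the deposited log2 values with PLIER16, quantile normalized them and set them relative to the median of all 12 samples. Of 377 genes read from a table of the study's group means, 376 matched exactly 1 probe on the AOM/DSS arrays within 0.0001, and at 0 of these did the water means match as well, so genotypes were compared within each array set. Scanner files were not used here. The number of arrays limits the precision.

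Groups came from the labels. The 10 genes, the lists, the motifs and the tests were chosen with earlier results of these data known. limma 3.58.1 in R 4.3.3 fitted 1 mean per group over all 12 arrays (lmFit and eBayes), with Benjamini-Hochberg adjustment over all probes; 28853 probes had values on the AOM/DSS arrays and 28815 on all 12. Tested on simulated data, the fit called 86% of 100 probes changed by 1.5 log2, 99% of 100 changed by 3, and 3 unchanged probes. The simulation gave a probe the same spread on every array and made probes independent, unlike these data. Its count of unchanged probes called therefore does not carry over to them. A list's call needed every probe of a gene to pass. The text names all 10 genes, from each related list up to 4 called genes with the largest difference (otherwise the 2 lowest p), up to 2 defining genes of other cell lists, and the 3 most correlated genes per member; Sh2d1a, Sh2d1b2, Il2ra, Ctla4, Ikzf2, Klrb1c, Eomes, Csf1r, Hoxb6 and Gzmd were singled out with their values known. Tyrobp is the fifth called gene of its list. Motifs were searched with Python 3.11.15, and windows aligned with Biopython 1.88.

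Alternatives were other scalings, filters and fits, and each array left out.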

Additional observations from a re-analysis of the deposited data

How the results depend on the processing

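The call of Sh2d1b1 after AOM/DSS held in 20 of 22 alternative settings. It was lost under renewed quantile normalization of the 12 arrays and in a fit of the 6 AOM/DSS arrays alone. That fit estimates the spread from fewer arrays and without the water arrays. The cause of either loss was not tested. Under these 2 settings 0 of the 10 genes were called, and 183 and 6 of all probes were, while array weights gave 381. Renewed quantile normalization of the 12 arrays gave 78 higher and 105 lower calls, and that within each array set gave 259 and 391. The median difference of all probes, 0.13 as deposited, was 0.02 under both. Relative to that median, Foxp3 differed by 0.52, Sh2d1b1 by 1.43 and Ncr1 by 0.12. The median over the 10 genes, 0.57 as deposited, was -0.05 and -0.06 under these 2 normalizations and 0.02 with array weights, which called 3 of the 115 related genes higher. The number of arrays, 3 per group, limits what could be detected, and signal over background is not known from values relative to a baseline.

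Other directions changed too. After AOM/DSS, renewed quantile normalization of the 12 arrays and within each set gave -0.26 and -0.38 for Cd3e, -0.000656 and -0.00764 for Cd3g, and -0.10 and -0.11 for Cd8a. Array weights gave -0.00588 for Cd8a and -0.15 for Ncr1. On water, the same normalizations gave 0.0299 and 0.0352 for Gzmb, and array weights gave 0.051 for Gzmb, -0.0242 for Cd3e and -0.11 for Gzma. For the difference of the differences, the normalizations gave -0.28 and -0.39 for Cd3e, -0.10 and -0.11 for Cd8a, -0.0711 and -0.0524 for Prf1 and -0.23 and -0.17 for Ncr1. Centred arrays gave -0.0116 for Prf1 and -0.0221 for Ncr1, and array weights -0.51 and -0.33. The count of all probes called there was 18 and 20 under the normalizations, 82 with array weights, 4 with a robust prior, 5 with single-symbol probes and 7 past the variability filter. No cause was tested for these changes.

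Leaving out replicate 3 of the treated TSP-1-/- mice and replicate 1 of the treated WT mice together, chosen after seeing the data, called 2 of the 10 genes, Sh2d1b1 and Gzma, and 1 for the difference of the differences, Gzma (-2.97, adjusted p = 0.024), with 402 probes in all. The differences were then -0.46 for Cd3e, -0.78 for Cd3g, -0.64 for Cd8a (adjusted p = 0.0349, under 2-fold) and -0.15 for Ncr1. The differences of the differences were -0.47 for Cd3e, -0.67 for Cd3g, -0.63 for Cd8a, -0.44 for Prf1 and -0.33 for Ncr1.

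With each array left out in turn, 1 to 2 of the 10 genes and 104 to 1402 probes were called after AOM/DSS, 0 and 0 to 1 on water, and 0 and 1 to 289 for the difference of the differences. The lowest probe count, 104, was without replicate 3 of the WT mice, 170 were called without replicate 3 of the TSP-1-/- mice, and the highest, 1402, was without replicate 2 of the TSP-1-/- mice. After AOM/DSS the differences ranged from -0.0628 to 1.58 for Cd3e, -0.36 to 1.21 for Cd3g, -0.38 to 1.05 for Cd8a, -0.48 to 0.057 for Gzmb, -0.39 to 0.45 for Prf1 and -0.12 to 0.61 for Ncr1. On water they ranged from -0.0802 to 0.11 for Cd3e, -0.29 to 0.0654 for Cd3g, -0.19 to 0.00267 for Cd4, -0.025 to 0.00194 for Cd8a, -0.15 to 0.0756 for Foxp3, -0.18 to 0.26 for Gzma, -0.18 to 0.13 for Gzmb and -0.18 to 0.0655 for Prf1. The differences of the differences ranged from -0.074 to 1.57 for Cd3e, -0.25 to 1.31 for Cd3g, -0.37 to 1.06 for Cd8a, -0.45 to 0.0888 for Gzmb, -0.31 to 0.54 for Prf1 and -0.31 to 0.43 for Ncr1.

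Among the treated arrays, same-numbered arrays of the genotypes deviated together at r = 0.03, -0.04 and -0.02, and differently numbered ones at -0.02 to 0.05. On water, same-numbered arrays did so at 0.09, 0.28 and 0.40, and differently numbered ones at -0.38 to 0.18. Whether the numbers pair the arrays of either set is not settled by these values. With the replicate block, 803 probes were called after AOM/DSS instead of 802, and 1 instead of 2 for the difference of the differences. The count of the 10 genes called after AOM/DSS was 1 with and without it. On water the block moved the unadjusted p of Sh2d1b1 from 0.0408 to 0.0152 (limma), and 0 probes were called.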
